A study of Mus musculus with 6 samples.

Results

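Integrins are cell surface receptors made of an alpha and a beta chain that bind proteins of the extracellular matrix or other cells and couple them to the actin or keratin cytoskeleton. Laminins are trimers of an alpha, a beta and a gamma chain that form the sheet of the basement membrane, on which epithelia, vessels, muscle and Schwann cells rest. In a developing tooth the basement membrane lies between dental epithelium and dental mesenchyme, and odontoblasts and ameloblasts form on either side of it. The 35 genes described here are the 25 integrin chain genes and 10 laminin chain genes that were selected from the 23594 genes of the deposited count table by the pattern of their names. The one further integrin name in the lists, Itgad, is not among the table's gene names.

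Their RNA was measured in the laser-captured apical tissue of the furcation development region, the area of the molar where the floor between the roots forms. The Control group is 3 libraries of wild type C57BL/6 mice, and the Lhx6-/- group is 3 libraries of mice of the same strain, both at postnatal day 4.5. Lhx6 is a LIM homeobox transcription factor. The Lhx6-/- mice are homozygous for a knock-in allele, Lhx6-CreER, that disrupts the gene in every cell of the body, and the Control mice carry no engineered allele according to the labels. Each library combines tissue of several mandibular first molars, so a library is a pool and not an animal, and the labels do not say which animals went into it. The p-values therefore measure the spread between pools. In bulk tissue, fewer cells of a type and less RNA per cell cannot be told apart.

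The libraries held 60132323 to 76157433 estimated counts. Levels are given per 1000000 counts after scaling for library composition (CPM), and values per library are listed in the order of replicates 1, 2 and 3. The targeted gene was read first: Lhx6 stood at 27.8, 18.2 and 21.9 CPM in Control and at 12.8, 9.82 and 10.5 CPM in Lhx6-/- libraries, so all 3 mutant libraries lay below all 3 Control libraries and transcript remained in each. Of 10 dental mesenchyme markers, the defining cells of the captured tissue, none was under 1 CPM in every library, and the same held for the markers of epithelium, odontoblasts, endothelium, pericytes and leukocytes. The summed level of 12 dental epithelium markers was 1210 to 1920 CPM in Control and 846 to 980 CPM in Lhx6-/- libraries, and that of 7 pericyte and smooth muscle markers was 472 to 542 CPM in Control and 648 to 783 CPM in Lhx6-/- libraries, without overlap in either case. The sum of 4 odontoblast markers was 6440 to 7100 CPM in Lhx6-/- libraries and lower, from 5290 CPM, in every Control library. Dspp made up most of it, at 4280 to 4730 CPM in Control and 5370 to 5990 CPM in Lhx6-/- libraries. Singly, all 4 were higher, 1 at an unadjusted and 0 at an adjusted p under 0.05, and for 2 of them, Phex and Nes, the genotypes overlapped. Dental mesenchyme markers summed to 94500 to 119000 CPM in Control and 110000 to 118000 CPM in Lhx6-/- libraries, with overlap. Col1a1 and Col1a2 made up most of this sum. Singly, 9 of these 10 markers were higher and 1 lower in Lhx6-/- tissue, 3 at an unadjusted and 0 at an adjusted p under 0.05. For 4 of them, all higher, the genotypes did not overlap. The pools also differed in sex. Xist, which is made by female cells, was at 792, 411 and 628 CPM in Control and 290, 0.228 and 0.0537 CPM in Lhx6-/- libraries, without overlap, so Lhx6-/- replicates 2 and 3 held almost no female tissue. Y-linked genes summed to 17.4, 58.0 and 14.6 CPM in Control and 55.1, 92.1 and 88.5 CPM in Lhx6-/- libraries. The sex of the pools thus ran with genotype. Values with the Y-linked level in the model are given beside several members and in the last section. Values with the epithelial marker level are given in the same way. Both levels ran with genotype, so with 3 libraries per genotype these fits cannot separate either of them from genotype.

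All 35 genes were detected. To compare levels between genes, CPM was divided by the length of the merged exons of each gene. The highest levels per length among the integrin chains were those of Itgb1, the beta chain shared by most matrix-binding integrins, with 83.7 CPM per kb on average and 75.3 to 92.9 CPM per kb over the 6 libraries, and of Itgb5, which pairs with Itgav, with 70.2 CPM per kb and a range of 66.6 to 74.1 CPM per kb. These ranges did not overlap.

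Among the laminin chains, Lama3, an alpha chain of epithelial basement membranes, had 28.3 CPM per kb, and Lamc1, the gamma chain of most laminins, had 27.8 CPM per kb. Their ranges of 25.5 to 33.7 and 25.8 to 30.0 CPM per kb overlapped, so these neighbours could not be ordered. The beta chains Lamb2 and Lamb1 had 24.2 and 15.6 CPM per kb. The remaining alpha chains were lower per length: Lama4, an alpha chain of vessel walls and mesenchyme, had 7.80 CPM per kb, Lama5 4.50, Lama2 2.0 and Lama1, the alpha chain of early embryonic basement membranes, 1.54 CPM per kb. Lamc3, a gamma chain of more restricted distribution, had 3.09 CPM per kb.

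Among the integrin alpha chains, the highest level per length was that of a collagen receptor chain, Itga10, with 19.8 CPM per kb, ahead of the fibronectin receptor chain Itga5 with 12.9 CPM per kb and the fibrillar collagen receptor chain Itga11 with 12.7 CPM per kb. The value of Itga10 is uncertain, since 33.5% of its exon length is shared with a second annotated gene on the same strand, Gm42957, and the counting could divide reads between them. Itgav, which binds the RGD motif of matrix proteins, had 10.8 CPM per kb. The laminin receptor chain Itga6 had 8.33 CPM per kb and Itgb4, its partner in hemidesmosomes, had 13.3 CPM per kb. At the lower end stood chains of blood cells and of few other cells: Itga2b, the platelet chain, had 0.738 CPM per kb, the leukocyte chains Itgal, Itgax and Itgae had 0.633, 0.591 and 0.0592 CPM per kb, and Itgb8 had 0.245 CPM per kb. Itgae was the only member under 1 CPM on average and the only one with fewer than 100 estimated counts in some library.

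**Figure D1:**
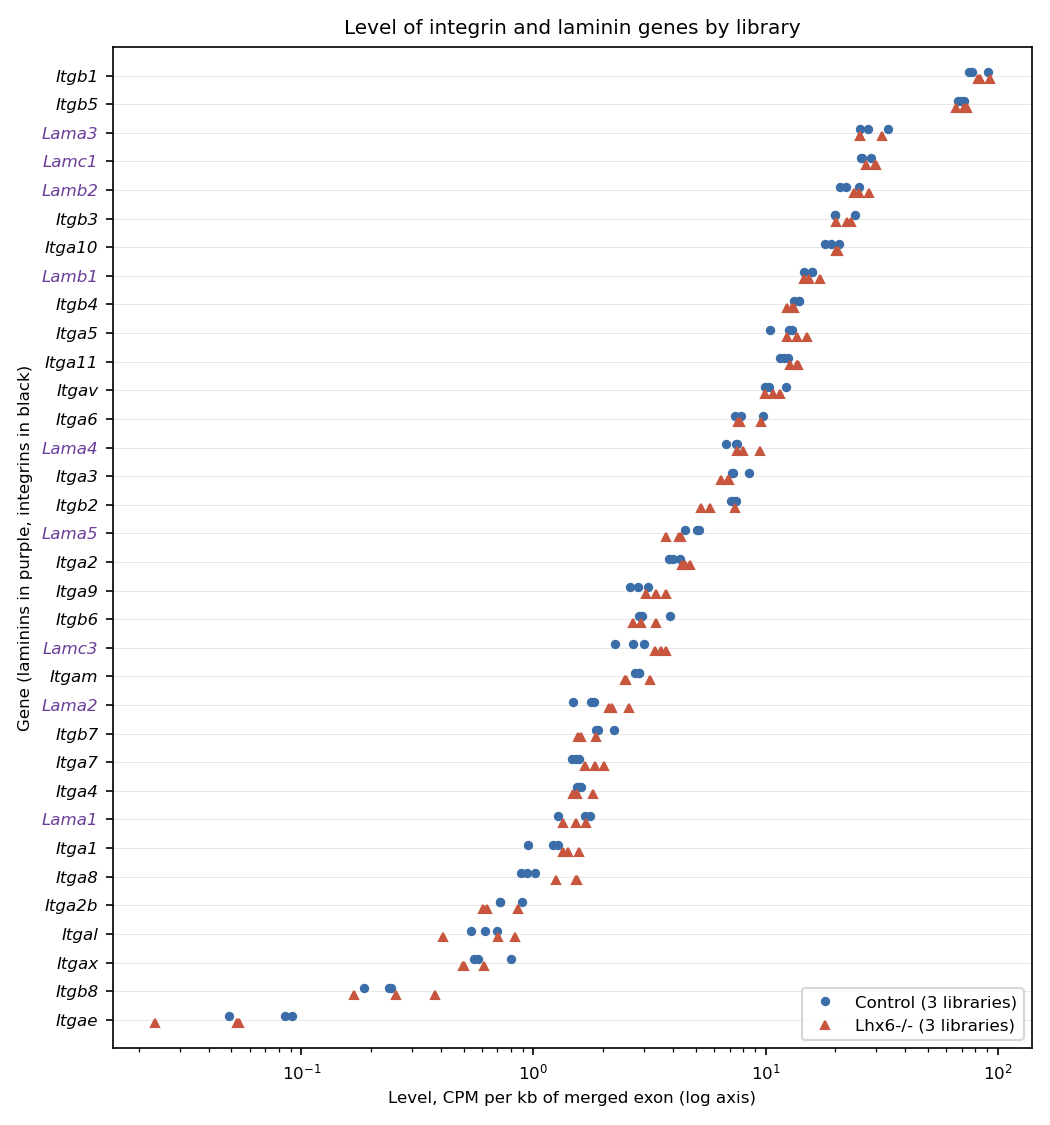
Level of 34 of the genes in each of the 6 libraries, in CPM per kb of merged exon on a log axis, with Control libraries as circles and Lhx6-/- libraries as triangles. These genes span from 0.0592 CPM per kb for Itgae to 83.7 CPM per kb for Itgb1 on average, and for most of them the libraries of both genotypes lie within a narrow band.

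The comparison of interest is the level of each chain in Lhx6-/- against Control tissue, which addresses how the matrix receptors and basement membrane chains of the furcation stand when Lhx6 is lost. No integrin or laminin gene passed an adjusted p of 0.05 in edgeR's quasi-likelihood test, beside 0.403% of all 20114 genes tested. At an unadjusted p under 0.05 there were 9 of the 35 members, 8 higher in Lhx6-/- tissue (Itga8, Lama2, Lamc3, Itga1, Itga7, Itga9, Lama4 and Itga11) and 1 lower (Lama5). These 9 were 25.7% of the members, against 9.81% of all genes tested, of which 4.75% were higher and 5.07% were lower at that level. DESeq2 gave an adjusted p under 0.05 to 2 members, Itga8 and Lama2, and limma voom to 0. The level of Itga8 was 1.53-fold higher, which alone met the rule that combines a 1.5-fold or larger difference and an unadjusted p under 0.05. This rule was met by 1.58% of all genes in the higher direction and 1.71% in the lower direction, so 1 member of 35 is near the share of all genes.

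The libraries of the genotypes did not overlap for 12 members, with 8 above Control (Itga1, Itga2, Itga7, Itga8, Itga11, Lama2, Lama4 and Lamc3) and 4 below it (Itga3, Itgb4, Itgb7 and Lama5), beside 7.86% of all genes above and 7.68% below. For Lama4, Itgb4 and Itgb7 the nearest libraries of the genotypes were equal to 3 digits. Over the integrins the median log2 fold change was 0.03 and over the laminins 0.07, against -0.00 over all genes tested, and 20 members were higher and 15 lower. All but Itga8 and Itgae were estimated to lie within 1.5-fold of Control, and for 26 of the 35 the whole 95% interval lay inside 1.5-fold in either direction. The intervals of the other 9 members (Itga8, Lama2, Lamc3, Itga2b, Itgal, Itgax, Itgae, Itgb7 and Itgb8) reached past it.

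**Figure D2:**
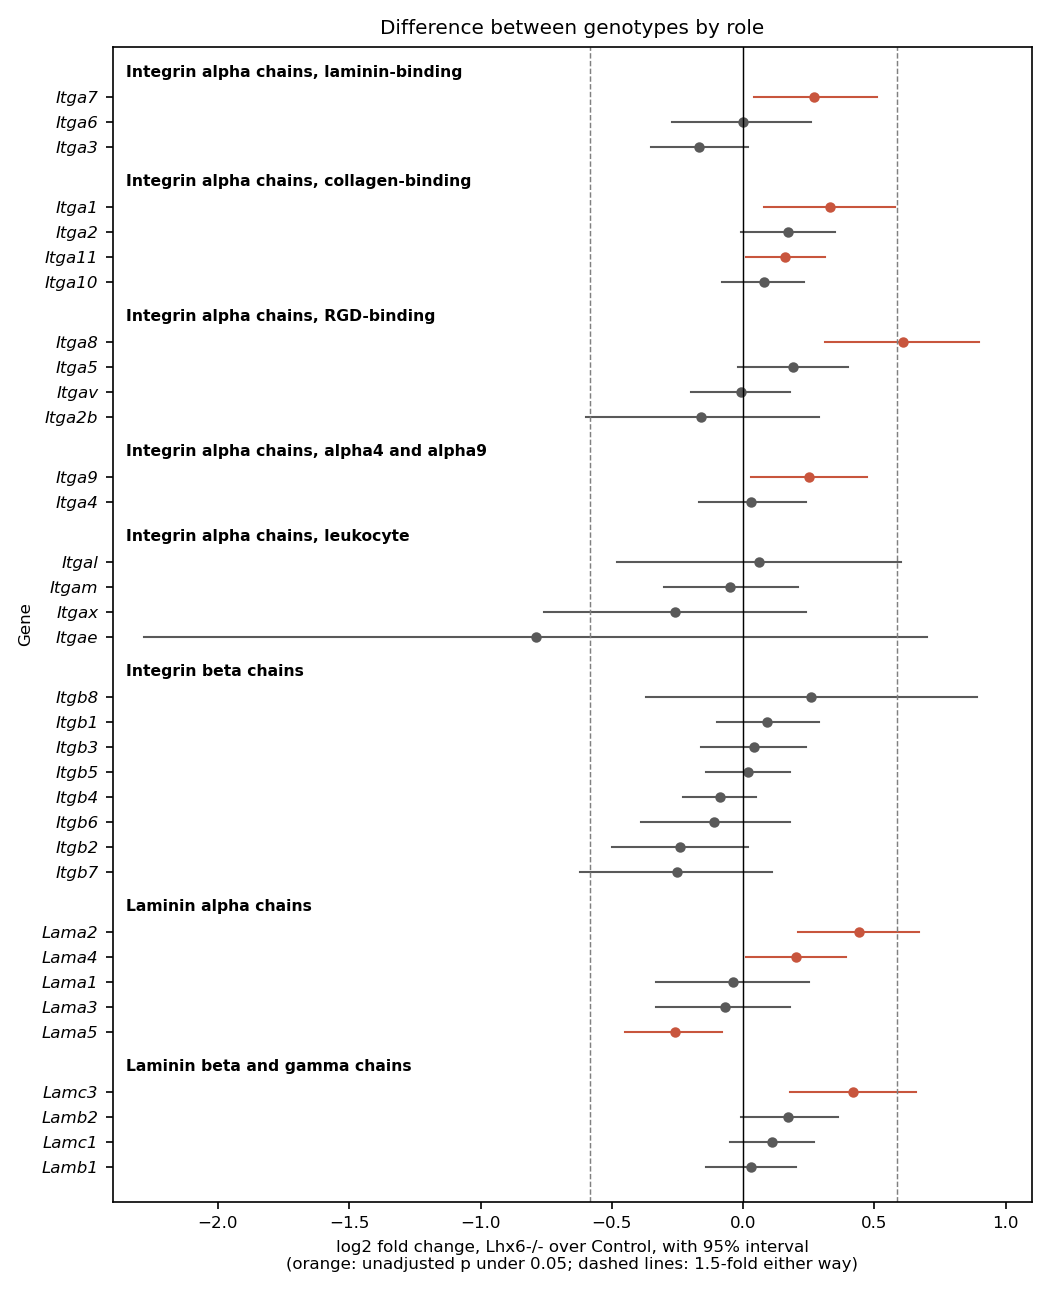
Log2 fold change of 34 of the members in Lhx6-/- over Control tissue with its 95% interval, grouped by role, with 3 libraries per genotype. Dashed lines mark 1.5-fold in either direction and orange marks an unadjusted p under 0.05. The collagen-binding chains all lie to the right of 0, the leukocyte and beta chains scatter around it, and the interval of Itgae is the widest.

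The RGD-binding alpha chains held the member that differed most among those well measured. Itga8, the chain of a receptor that binds fibronectin, tenascin and nephronectin and is found in smooth muscle and mesenchymal cells, is encoded on the minus strand of chromosome 2, positions 12106632 to 12301922 of mm10. It was at 6.94, 6.52 and 7.46 CPM in Control and 11.4, 11.3 and 9.23 CPM in Lhx6-/- libraries. Every Lhx6-/- library was above every Control library, and Lhx6-/- replicate 3 was the nearest to Control. The means were 6.97 ± 0.467 CPM (SD, n = 3) and 10.6 ± 1.22 CPM (SD, n = 3), a log2 fold change of 0.61 with a standard error (SE) of 0.14 (adjusted p = 0.109). The adjusted p ran from 0.00999 to 0.600 over 17 alternative fits, and the log2 fold change from 0.53 to 0.77. An antisense gene, E030013I19Rik, shares 5.0% of the exon length of Itga8 and averaged 0.0481 CPM in Control and 0.375 CPM in Lhx6-/- libraries. The sources used here do not say whether strand was used in counting, and reads of the shared stretch cannot be assigned to either gene.

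The other RGD-binding chains were closer to Control. Itga5, which forms the classical fibronectin receptor with Itgb1, was at 62.1, 51.5 and 64.3 CPM in Control and 74.5, 67.5 and 61.0 CPM in Lhx6-/- libraries, and the groups overlapped. Its log2 fold change was 0.19 (SE 0.10, adjusted p = 0.586). It was -0.01 with the epithelial marker level in the model, 0.49 with the Y-linked level, 0.10 without Control replicate 2 and 0.12 without Lhx6-/- replicate 1. Itgav, the partner of several beta chains and a receptor that activates latent TGF-beta, had a mean of 116 CPM in both genotypes, with a log2 fold change of -0.01 and a 95% interval of -0.20 to 0.18. Itga2b, the platelet fibrinogen receptor chain, was at 3.30 to 4.89 CPM over all libraries, and 6 platelet and megakaryocyte markers summed to 13.3 to 14.0 CPM in Control and 8.22 to 14.5 CPM in Lhx6-/- libraries.

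All 4 collagen-binding alpha chains had a log2 fold change above 0, from 0.08 to 0.33, and 3 of them did not overlap between genotypes. Of all 20114 genes tested, 9996 had a log2 fold change above 0, and 7.86% lay above Control without overlap. The log2 fold changes of the 4 chains were above 0 under every scaling tried, though that of Itga10 was -0.01 with the epithelial marker level in the model. Itga1, a receptor chain for the collagen of basement membranes found on vessel and mesenchymal cells, was at 22.5, 23.7 and 17.6 CPM in Control and 29.2, 26.2 and 24.9 CPM in Lhx6-/- libraries. The log2 fold change was 0.33 (SE 0.12, adjusted p = 0.342), and Control replicate 3 was the lowest library. It was 0.21 without that library and 0.20 with the Y-linked level in the model. Itga2, which lies beside Itga1 on chromosome 13, from 114833081 to 114932100 against 114953096 to 115101964, both on the minus strand, was at 27.3, 28.5 and 30.5 CPM in Control and 31.2, 33.7 and 32.1 CPM in Lhx6-/- libraries. These groups were apart by less than 1 CPM, and the log2 fold change was 0.17 (SE 0.08, adjusted p = 0.528).

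Itga11, a collagen receptor chain of fibroblasts and periodontal ligament cells, was at 64.3, 59.4 and 61.7 CPM in Control and 70.1, 71.0 and 65.5 CPM in Lhx6-/- libraries, for which the log2 fold change was 0.16 (SE 0.07, adjusted p = 0.488). Its counts were high and its spread small, and the 95% interval of 0.01 to 0.31 limits the difference to well under 1.5-fold. Itga10, a chain first known from cartilage, was at 108, 93.4 and 99.0 CPM in Control and 104, 107 and 105 CPM in Lhx6-/- libraries. The groups overlapped, and the log2 fold change was 0.08 (SE 0.07, adjusted p = 0.805).

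The 3 laminin-binding alpha chains did not share a direction. Itga7, the laminin receptor chain of skeletal and smooth muscle, was at 11.9, 12.7 and 12.3 CPM in Control and 16.3, 13.5 and 14.9 CPM in Lhx6-/- libraries, without overlap, and its log2 fold change was 0.27 (SE 0.11, adjusted p = 0.423). Itga3, a laminin receptor chain of epithelia, was at 40.9, 48.4 and 41.2 CPM in Control and 39.4, 36.8 and 39.9 CPM in Lhx6-/- libraries. It lay below Control in each library, with about 1 CPM between the nearest libraries of the genotypes, and its log2 fold change was -0.17 (SE 0.08, adjusted p = 0.570). It was -0.08 without Control replicate 2 and -0.34 with the Y-linked level in the model. Itga6, the chain of hemidesmosomes, was at 66.9, 88.2 and 70.9 CPM in Control and 68.7, 70.3 and 86.3 CPM in Lhx6-/- libraries. One library of each genotype stood above the rest, and the groups overlapped. The log2 fold change was -0.00 with a 95% interval of -0.27 to 0.26 (adjusted p = 0.994). With the Y-linked level in the model it was -0.33 (adjusted p = 0.19).

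Of the chains that bind fibronectin splice forms, tenascin and vascular cell adhesion molecules, Itga9 was at 24.0, 20.0 and 21.7 CPM in Control and 28.6, 23.6 and 26.0 CPM in Lhx6-/- libraries. Lhx6-/- replicate 2 lay just below Control replicate 1, so the groups overlapped, and the log2 fold change was 0.25 (SE 0.10, adjusted p = 0.441). It was 0.04 with the epithelial marker level in the model and 0.47 with the Y-linked level. Itga4 had means of 22.0 ± 0.494 CPM in Control and 22.5 ± 2.38 CPM in Lhx6-/- libraries (SD, n = 3 each), with a log2 fold change of 0.03 and a 95% interval of -0.17 to 0.24.

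Of the 4 leukocyte alpha chains in the table, Itgal, Itgam, Itgax and Itgae, 1 was higher, 3 were lower and none had an unadjusted p under 0.05. Itgam, the chain of macrophages and neutrophils, was the most abundant per length of these, at 14.3, 13.8 and 14.3 CPM in Control and 15.9, 12.6 and 12.5 CPM in Lhx6-/- libraries, for which the log2 fold change was -0.05 (SE 0.12, adjusted p = 0.949). Its value is uncertain because 68.7% of its exon length is shared with Gm49368 on the same strand, which itself averaged 0.0538 CPM. Itgb2, the beta chain that Itgal, Itgam and Itgax use, was at 22.1, 21.6 and 22.7 CPM in Control and 22.6, 17.6 and 16.1 CPM in Lhx6-/- libraries. Of the Lhx6-/- libraries, 2 were below all Control libraries and 1 was within them, and the log2 fold change was -0.24 (SE 0.12, adjusted p = 0.558). The summed level of 10 leukocyte markers had the same shape, with 552, 553 and 585 CPM in Control and 573, 501 and 509 CPM in Lhx6-/- replicates 1, 2 and 3. Its part in the values of Itgb2 was not tested. Itgae, the chain of intraepithelial lymphocytes, had the most negative log2 fold change of all members, -0.79, but at 0.107 to 0.418 CPM its 95% interval ran from -2.28 to 0.70.

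The 8 beta chains were divided evenly, with 4 higher and 4 lower, log2 fold changes from -0.25 to 0.26, and none with an unadjusted p under 0.05. Itgb1 was at 315, 369 and 307 CPM in Control and 343, 336 and 379 CPM in Lhx6-/- libraries. The groups overlapped, and the log2 fold change was 0.09 (SE 0.09, adjusted p = 0.819). Its 95% interval was -0.10 to 0.29, inside 1.5-fold in either direction. Itgb5 and Itgb3, partners of Itgav, had log2 fold changes of 0.02 and 0.04, with 95% intervals of -0.14 to 0.18 and -0.16 to 0.24. Itgb6, the epithelial partner of Itgav, had a log2 fold change of -0.11 with an interval of -0.39 to 0.18.

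Itgb4, whose long cytoplasmic tail anchors keratin filaments in hemidesmosomes, was at 97.9, 98.0 and 92.6 CPM in Control and 91.0, 87.0 and 92.6 CPM in Lhx6-/- libraries. The groups just failed to overlap, and the log2 fold change was -0.09 (SE 0.06, adjusted p = 0.722), with a 95% interval of -0.23 to 0.05. Itgb7, the beta chain of lymphocyte homing receptors, was at 5.17, 5.27 and 6.14 CPM in Control and 5.17, 4.31 and 4.43 CPM in Lhx6-/- libraries, for which the log2 fold change was -0.25 (SE 0.17, adjusted p = 0.704). Itgb8, a low chain that also activates TGF-beta, ranged from 1.87 to 4.18 CPM and both ends of this range were Lhx6-/- libraries.

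Of the 5 laminin alpha chains, 2 were higher and 1 was lower at an unadjusted p under 0.05, beside 4.75% and 5.07% of all genes tested. Lama2, the alpha chain of muscle and peripheral nerve basement membranes, is encoded on the minus strand of chromosome 10, positions 26980036 to 27619758. It was at 29.9, 29.0 and 24.1 CPM in Control and 42.3, 34.7 and 35.8 CPM in Lhx6-/- libraries, so every Lhx6-/- library was above every Control library and Lhx6-/- replicate 1 was the highest. The means were 27.7 ± 3.08 CPM (SD, n = 3) and 37.6 ± 4.10 CPM (SD, n = 3), for which the log2 fold change was 0.44 (SE 0.10, adjusted p = 0.140). Over the 17 alternative fits its adjusted p ran from 0.0172 to 0.629. Beside these values, the summed level of 7 Schwann cell markers was 162, 511 and 343 CPM in Control and 411, 189 and 503 CPM in Lhx6-/- libraries, and that of 8 skeletal muscle markers was 1380 to 1770 CPM in Control and 1460 to 2220 CPM in Lhx6-/- libraries. The sum of pericyte and smooth muscle markers, which also separated the genotypes without overlap, is given above. The part of these cells in the level of Lama2 was not tested.

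Lama4 was at 91.3, 81.6 and 89.7 CPM in Control and 114, 96.6 and 91.3 CPM in Lhx6-/- libraries. The nearest libraries, Control replicate 1 and Lhx6-/- replicate 3, were equal to 3 digits, and the log2 fold change was 0.20 (SE 0.09, adjusted p = 0.488). It was 0.10 without Lhx6-/- replicate 1, 0.04 with the epithelial marker level in the model and 0.40 with the Y-linked level. Lama5, the alpha chain of mature epithelial and vascular basement membranes, is encoded on the minus strand of chromosome 2, positions 180176373 to 180225859, and was the one member lower at an unadjusted p under 0.05. It was at 57.7, 58.9 and 51.2 CPM in Control and 48.3, 49.4 and 42.3 CPM in Lhx6-/- libraries. All Lhx6-/- libraries were below all Control libraries. The means were 56.0 ± 4.13 CPM (SD, n = 3) and 46.7 ± 3.85 CPM (SD, n = 3), and the log2 fold change was -0.26 (SE 0.08, adjusted p = 0.295).

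The other laminin alpha chains overlapped between genotypes. Lama3 was at 275, 362 and 298 CPM in Control and 275, 274 and 341 CPM in Lhx6-/- libraries. Its log2 fold change was -0.07 (SE 0.12, adjusted p = 0.912), and -0.38 with the Y-linked level in the model (adjusted p = 0.16). Lama1 averaged 15.1 ± 2.45 CPM in Control and 14.7 ± 1.66 CPM in Lhx6-/- libraries (SD, n = 3 each).

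Among the laminin beta and gamma chains, Lamc3 was the one with an unadjusted p under 0.05. The gene is on the plus strand of chromosome 2, positions 31887291 to 31946539. It was at 16.4, 18.2 and 13.7 CPM in Control and 22.7, 21.6 and 20.4 CPM in Lhx6-/- libraries, without overlap. The means were 16.1 ± 2.25 CPM (SD, n = 3) and 21.6 ± 1.16 CPM (SD, n = 3), for which the log2 fold change was 0.42 (SE 0.11, adjusted p = 0.202). With the level of Y-linked genes in the model the log2 fold change of Lamc3 was 0.24 (adjusted p = 0.524), and its unadjusted p then exceeded 0.05. An antisense gene, Gm13441, shares 6.3% of its exon length.

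The abundant chains of the common laminins had small differences. Lamc1 had a log2 fold change of 0.11 (95% interval -0.05 to 0.27), Lamb1 0.03 (interval -0.14 to 0.20) and Lamb2 0.17 (interval -0.01 to 0.36).

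**Figure D3:**
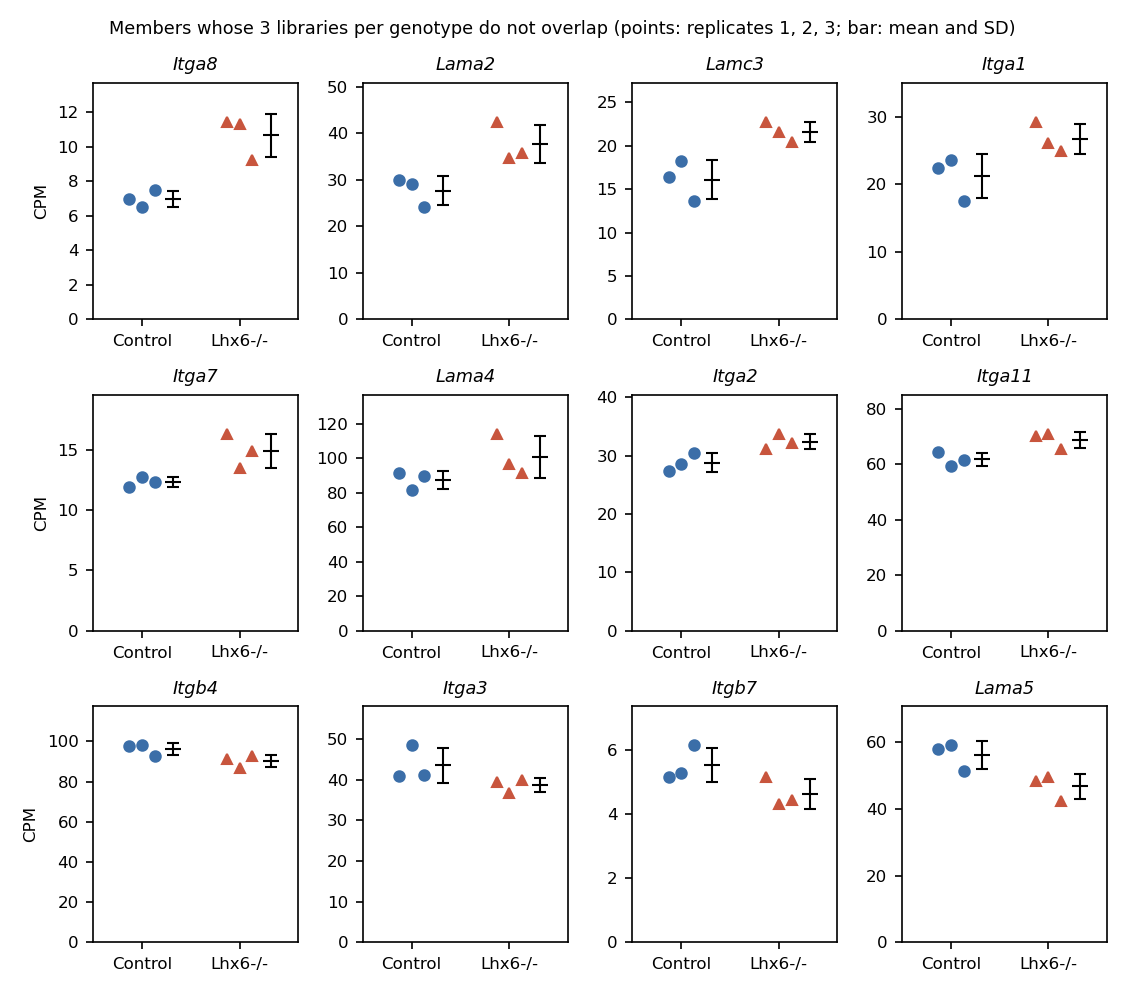
CPM of the 12 members whose 3 Control and 3 Lhx6-/- libraries did not overlap, each panel on its own axis from 0, with replicates 1, 2 and 3 from left to right and the mean with its SD beside them. Itga8, Lama2 and Lamc3 show the widest gaps upward and Lama5 the widest downward, while the nearest libraries touch in Lama4, Itgb4 and Itgb7.

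Several chains had the same high libraries. Within each genotype, 9 members, among them Itga3, Itga6, Itgav, Itgb1, Itgb4, Itgb6, Itgb8 and Lama3, were highest in Control replicate 2 and in Lhx6-/- replicate 3. This was 25.7% of the members and 18.6% of all genes tested, so it is not far from the share of all genes. All 12 epithelial markers were lower in Lhx6-/- tissue, 8 of them at an unadjusted p under 0.05 and 0 at an adjusted p under 0.05. Their sum was highest in the same libraries of each genotype, with 1210, 1920 and 1310 CPM in Control and 846, 937 and 980 CPM in Lhx6-/- libraries. Between genotypes, the epithelial marker sums of all Lhx6-/- libraries lay below Control. Itga3 and Itgb4, and also Lama5, lay below Control in every Lhx6-/- library as these markers did, whereas the groups overlapped for Lama3, Itga6 and Itgb6. Genes of ameloblasts, which are epithelial cells that secrete enamel, were looked at after these values were seen. Ambn, an enamel matrix protein, was at 29000, 34800 and 30000 CPM in Control and 28300, 26300 and 34700 CPM in Lhx6-/- libraries. Enam and Mmp20 were likewise highest in Control replicate 2 and Lhx6-/- replicate 3. Amelx was more abundant still, at 101000, 96400 and 110000 CPM in Control and 94700, 83300 and 105000 CPM in Lhx6-/- libraries. It was highest in Control replicate 3 and Lhx6-/- replicate 3. The part of epithelial or ameloblast content in the values of these chains was not tested. With the epithelial marker level in the model, the log2 fold change was 0.17 for Lama3 and 0.25 for Itga6, with adjusted p of 0.873 and 0.777, and it was -0.05 for Itga3 and -0.23 for Lama5, with adjusted p of 0.964 and 0.774.

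Among the Lhx6-/- libraries, replicate 1 was the highest for 22 of the 35 members, against 35.2% of all genes tested. This was 62.9% of the members. The vessel marker sums were also highest in this library. All 10 endothelium markers were higher in Lhx6-/- tissue, 7 of them at an unadjusted p under 0.05, and their sum was 399, 399 and 400 CPM in Control and 514, 466 and 441 CPM in Lhx6-/- libraries. All 7 pericyte and smooth muscle markers were higher, 6 at an unadjusted p under 0.05, and their sum was 542, 472 and 509 CPM in Control and 783, 648 and 651 CPM in Lhx6-/- libraries. Itga1, Itga7, Itga8, Lama2 and Lama4, chains that cells of the vessel wall are known to make, had the same order of genotypes and each was highest in Lhx6-/- replicate 1. Lama5, also a chain of vascular basement membranes, went the other way. It was below Control in every Lhx6-/- library, and replicate 2 was the highest of these. Itga2 and Itga11, also above Control without overlap, were likewise highest in Lhx6-/- replicate 2. Itgb1, the beta chain shared by most matrix-binding integrins, overlapped between genotypes, as did Itga6 and Itgav. Of the Lhx6-/- libraries, replicate 3 was the highest for these 3 chains. The 5 chains named above were picked with their values known. The part of vessel content in these differences was not tested. Without Lhx6-/- replicate 1, the number of members with an unadjusted p under 0.05 was 5 instead of 9, and Itga1, Itga7 and Lama4 were not among them. Their log2 fold changes were then 0.27 for Itga1, 0.21 for Itga7 and 0.10 for Lama4, against 0.33, 0.27 and 0.20 with all libraries. The number was 6 without Control replicate 3, where these chains also had an unadjusted p over 0.05, at log2 fold changes of 0.21, 0.27 and 0.22.

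**Figure D4:**
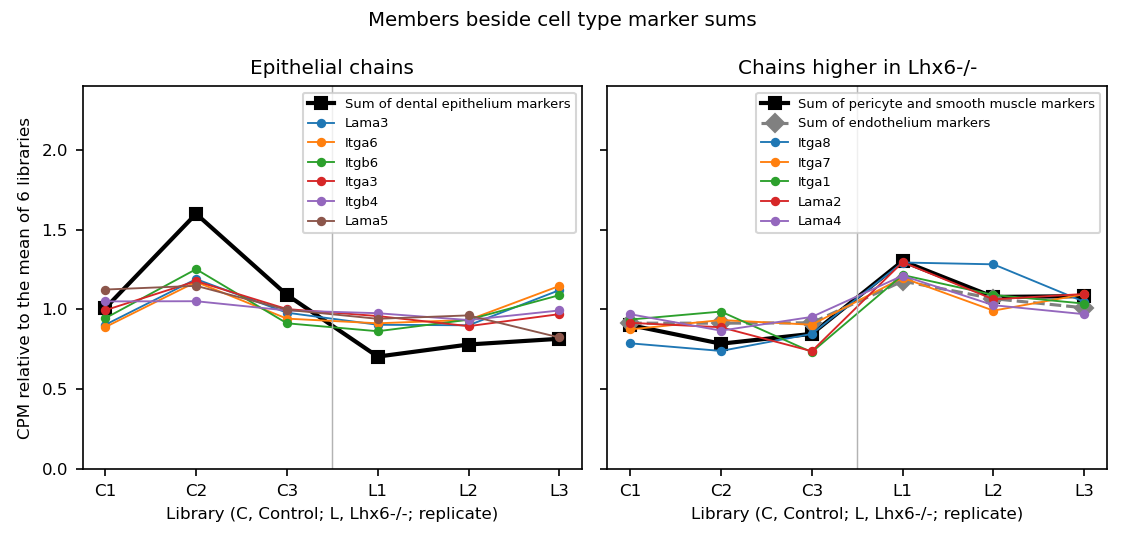
CPM in each library relative to the mean of the 6 libraries, for epithelial chains beside the summed dental epithelium markers (left). The right panel shows 5 of the chains higher in Lhx6-/- tissue, picked with their values known, beside the summed pericyte and endothelium markers. Itga2, Itga11 and Lamc3, also above Control without overlap, are not drawn. On the left, Lama3, Itga6, Itgb6, Itga3 and Itgb4 are highest in Control replicate 2 among Control and in Lhx6-/- replicate 3 among Lhx6-/- libraries, and Itga3, Itgb4 and Lama5 lie below Control in every Lhx6-/- library, as the marker sum does. On the right, both marker sums and all 5 chains are highest in Lhx6-/- replicate 1.

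The genes that integrins and laminins work with were read from lists of the same kind. Of 18 partners of the basement membrane and hemidesmosome, 13 were higher and 5 lower, and the median log2 fold change was 0.14. Beside 0.403% of all genes tested, 1 of the 18 passed an adjusted p of 0.05. This was Nid1, nidogen, which links the laminin network to collagen IV. Nid1 was at 129, 139 and 122 CPM in Control and 182, 173 and 164 CPM in Lhx6-/- libraries, without overlap. Its means were 130 ± 8.42 CPM and 173 ± 9.47 CPM (SD, n = 3 each), for which the log2 fold change was 0.41 (SE 0.08, adjusted p = 0.0405). The adjusted p was under 0.05 in 9 of 17 alternative fits and ran from 3.18e-05 to 0.304, and it exceeded 0.05 when any library other than Control replicate 2 was left out. It was also 0.135 with the Y-linked level in the model, 0.145 with the epithelial marker level and 0.0627 with non-robust dispersion.

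Of 18 other integrin ligands, 14 were higher and 4 lower, and the median log2 fold change was 0.13. Again beside 0.403% of all genes tested, 1 of the 18 passed an adjusted p of 0.05. This was Tgfbi, a TGF-beta-induced matrix protein that binds integrins. Tgfbi was at 79.9, 94.3 and 79.5 CPM in Control and 154, 123 and 119 CPM in Lhx6-/- libraries, without overlap, and its log2 fold change was 0.64 (SE 0.11, adjusted p = 0.0299). The adjusted p was under 0.05 in 11 of the 17 alternative fits and ran from 2.03e-06 to 0.355, and it exceeded 0.05 without Control replicate 1 or 3 and without Lhx6-/- replicate 1 or 2. It was also 0.168 with the Y-linked level in the model and 0.355 with the epithelial marker level. Of 30 adaptors and focal adhesion genes, which connect the integrin tails with actin, 20 were higher and 10 lower, with log2 fold changes from -0.26 to 0.29 and a median of 0.05. None of them passed an adjusted p of 0.05, and 4 had an unadjusted p under 0.05, all higher. These 4 were 13.3% of the list, against 9.81% of all genes tested in either direction and 4.75% in the higher direction. The median over all genes tested was -0.00.

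With 3 libraries per genotype, an exact permutation test of a single gene cannot go below p = 0.1, so the calls rest on the spread that edgeR estimated across all genes. The call of Itga8 by the fold rule was lost when some single libraries were left out. Without Control replicate 2, Lhx6-/- replicate 1 or Lhx6-/- replicate 2 its log2 fold change was 0.56, 0.56 and 0.57, below the 1.5-fold limit. With all libraries it was 0.61, or 1.53-fold, which is close to that limit.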

How the data were processed

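RNA from 3 Control and 3 Lhx6-/- pools of laser-captured molar tissue was sequenced as single-end reads. Per the labels and the methods of the study, reads were trimmed by the authors, then aligned to mm10 (GRCm38) with STAR 2.6.1d and quantified per gene in Partek. They deposited estimated counts without normalization, which need not be whole numbers, for 23594 genes after removing genes of low counts. A second deposited table holds the authors' own comparison (fold changes and p-values, not used here) and sums used only to check the order of gene names, with a largest relative deviation of 1.71e-07. The quantification tool within Partek, the annotation and the use of strand are not given in the sources used here.

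The estimated counts were rounded and tested with edgeR 4.0.16 in R 4.3.3 (quasi-likelihood test, TMM factors 0.977 to 1.04, robust dispersion, edgeR's expression filter, genotype as the only term, two-sided), with Benjamini-Hochberg adjustment over all 20114 genes tested. All adjusted p-values in the text are from this test unless another tool is named. The biological coefficient of variation was 0.202. Fold changes are log2, Lhx6-/- over Control, with standard errors and 95% intervals from the same fit. A gene was called by an adjusted p under 0.05, or, with the thresholds of the study, by at least 1.5-fold and an unadjusted p under 0.05. CPM per kb used merged exons of GENCODE vM21, in which 23061 genes had the chromosome and start of the authors' table. Exon length over all isoforms lowers the value of genes with long alternative exons. With depths of 60132323 to 76157433 estimated counts, 34 of 35 members had at least 100 counts in every library, so the spread between pools limits the precision more than counting does.

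Members, roles, partner lists and marker lists were chosen with earlier results of these data known. Full values per library are given for members that passed either call, did not overlap between genotypes or had the highest level per length in their role, and for the other members that appear beside these. The values of 1 member are not reported here, though it enters the counts and medians. Partner genes are named where they passed a call. Values of further members and the enamel genes were chosen after they were seen. The methods of the study name littermates and 3 pairs of samples, but which libraries were partners is not given. The deposited counts carry other numbers for the Lhx6-/- libraries than the sample titles do. Deviations from the group means correlated at 0.0256, -0.0288 and -0.0314 for the title numbers 1, 2 and 3, which cannot show whether libraries were paired. The alternatives were 17 fits: other scalings (upper quartile, RLE, total count), no filter and a minimum of 10 counts in every library, DESeq2 1.42.0, limma 3.58.1 voom with sample weights, non-robust dispersion, a replicate block, Y-linked or epithelial marker level as a covariate, and leaving out each library. The code was tested on simulated counts. Tables and figures were made in Python 3.11.15, the figures with matplotlib 3.10.9.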

Additional observations from a re-analysis of the deposited data

How the results depend on the processing

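The count of members with an adjusted p under 0.05 was 0 in edgeR, 2 with DESeq2 (Itga8 and Lama2), 1 with a Y-linked covariate (Itga5, log2 fold change 0.49, adjusted p = 0.0402) and 0 in the other 15 fits. Itga8 alone met the fold rule, and 0 members met it with the epithelial covariate, while the count ran from 0 to 1 when single libraries were left out (0 without Control replicate 2, Lhx6-/- replicate 1 or Lhx6-/- replicate 2). The median log2 fold change of the integrins was 0.09 and of the laminins 0.14 with the Y-linked covariate, against 0.03 and 0.07. With single libraries left out these medians ran from -0.01 to 0.05 and from 0.05 to 0.11. The integrin median turned to -0.01 with the epithelial covariate and without Lhx6-/- replicate 1. Members at an unadjusted p under 0.05 numbered 15 with the Y-linked covariate (8 higher, 7 lower), 6 with the epithelial covariate, 6 without Control replicate 3 and 5 without Lhx6-/- replicate 1, against 9. Itga6, Itgav, Itgb6, Lama1 and Lama3 had an unadjusted p under 0.05 only with the Y-linked covariate. Over all alternatives the log2 fold change ran from -0.26 to 0.19 for Itgav, -0.50 to 0.18 for Itgb6 and -0.32 to 0.37 for Lama1. Over all genes the 81 calls by adjusted p became 298 with DESeq2, 359 with the Y-linked covariate, 22 with the epithelial covariate and 12 to 127 with a library left out, and the 660 calls by fold became 1241 with the Y-linked covariate. The Y-linked and epithelial marker levels ran with genotype, so the fits with these covariates cannot separate them from it. The causes were not tested.

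The replicate block, which treats equal numbers as paired, called 0 members by adjusted p, 1 by fold (Itga8) and 10 at an unadjusted p under 0.05, with medians of 0.02 for integrins and 0.07 for laminins, and 134 genes in all by adjusted p. Of 340 values of the 20 members with full values under alternatives, 319 kept direction and side of the adjusted threshold, 18 changed sign without an unadjusted p under 0.05 on either side, and 3 passed the adjusted threshold (Itga5, Itga8 and Lama2, above). Itga8 and Lama2 had an unadjusted p under 0.05 in all 17 fits and Lamc3 and Lama5 in 16. Itgae had 8 to 26 estimated counts per library, so counting error is large for it.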
